A study of Mus musculus with 29 samples.

Results

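Mammary fat of obese mice placed on intermittent calorie restriction (ICR) was compared with mammary fat of mice that remained obese (Obese), across all genes measured. The members were the libraries whose treatment label read ICR (5) or Obese (5), 10 of the 29 libraries of the study. The mice were wild-type C57BL/6N, and both groups had become obese on the diet D12492, which is 60% fat. Afterwards the Obese mice stayed obese and the ICR mice were restricted intermittently; the sources used here do not give the restriction cycle, the diet eaten or the age of the mice. Mice on the control diet D12450J (Control, 5 libraries) and formerly obese mice on 3 other diets served as reference groups: low-fat food eaten freely (LFD, 5), low-fat food cut by 30% of calories (LFCR, 5) and Mediterranean-style food cut by 30% (MCR, 4). All of these mice, controls included, carried a tumor of E0771 cells, a mouse mammary cancer line, injected into the 4th fat pad 25 weeks after the first diet was assigned. RNA came from the 9th pad on the opposite side, which the tissue label calls normal, although the sample titles begin with "tumor" and a label names E0771. Each title carries its own animal code, and each library was taken as 1 mouse, so the p-values below measure the spread between these libraries.

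The mammary fat pad consists mostly of white adipocytes, with milk ducts, vessels, connective tissue, macrophages and a lymph node embedded among them. Adipocytes take up fatty acids from blood, make further fatty acids from glucose and acetate (de novo lipogenesis), store them as triglyceride and release them by lipolysis. In obesity they enlarge, secrete more leptin, and are surrounded by macrophages that take up their lipid. Calorie restriction shrinks the stored fat, and refeeding after a restricted period is known to drive lipogenesis in white fat.

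Between 17599285 and 49026986 reads were recovered per ICR or Obese library. ICR 2 and Obese 3 were sequenced in lane 4 and had 18212783 and 17599285 reads, and the other 8 libraries had 30938161 or more. No lane held more than 1 library of either group, and lanes 1, 3, 4 and 5 each held 1 of both. The adipocyte hormone gene Adipoq lay between 34606 and 77646 normalized counts in all 10 libraries, so the label of fat tissue was matched by its defining gene. Lymphoid transcripts varied widely: the mean of 13 B cell genes was 6.36 (log2) in Obese 1 and 6.77 in Obese 5, and between 10.5 and 12.7 in the other 8. Skeletal muscle transcripts, as the mean of 14 genes, stood at 11.3 in Obese 2 and 8.48 in ICR 4, against 5.55 to 5.99 in the other 8. The first principal component of the 10 libraries held 47.46% of the variance and set Obese 1 and Obese 5 apart from the rest. The second held 22.79%, with all 5 ICR libraries on one side and all 5 Obese libraries on the other. The comparisons were also fitted without the libraries of low B cell mean (2 Obese and 6 of other groups), without those of high muscle mean (Obese 2, ICR 4 and 4 of other groups) and without lane 4. List counts that these fits moved by more than 1.5 times, or to or from 0, stand beside each list.

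Differences between ICR and Obese were broad. Of 19387 genes tested with limma, 1786 (9.21%) differed between ICR and Obese at an adjusted p under 0.05, 773 of them higher in ICR (3.99%) and 1013 lower (5.23%). In 837 genes (4.32% of those tested) every ICR library lay above every Obese library, and in 876 (4.52%) every one lay below. Cyp2e1, Mup10, Cyp2f2 and Thrsp were among the 12 largest rises, and Itgad, Mmp12, Sfrp5 and Peg10 among the 12 largest falls. With lane as a term of the fit 1562 genes passed. Within the 4 lanes that held a library of each group, Cyp2e1 differed by 4.80 to 7.73, Fasn by 1.44 to 5.01 and Itgad by -6.10 to -3.22 (log2, 1 pair a lane, no test). Without the 6 libraries of high muscle mean, 655 genes passed. Values below are normalized counts, in the order of libraries 1 to 5, and log2 differences are ICR minus Obese on the deposited variance-stabilised scale, which understates the change of genes with few reads. A count given as 2 numbers joined by ± is a mean and its SD (n = 5, for MCR n = 4), a log2 difference is given with its SE, and a further number in the same parentheses is the adjusted p from limma. List members beyond the 4 of smallest adjusted p were named after their values were seen. Every list count of ICR against Obese stands against 3.99% of all genes higher and 5.23% lower.

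**Figure D1:**
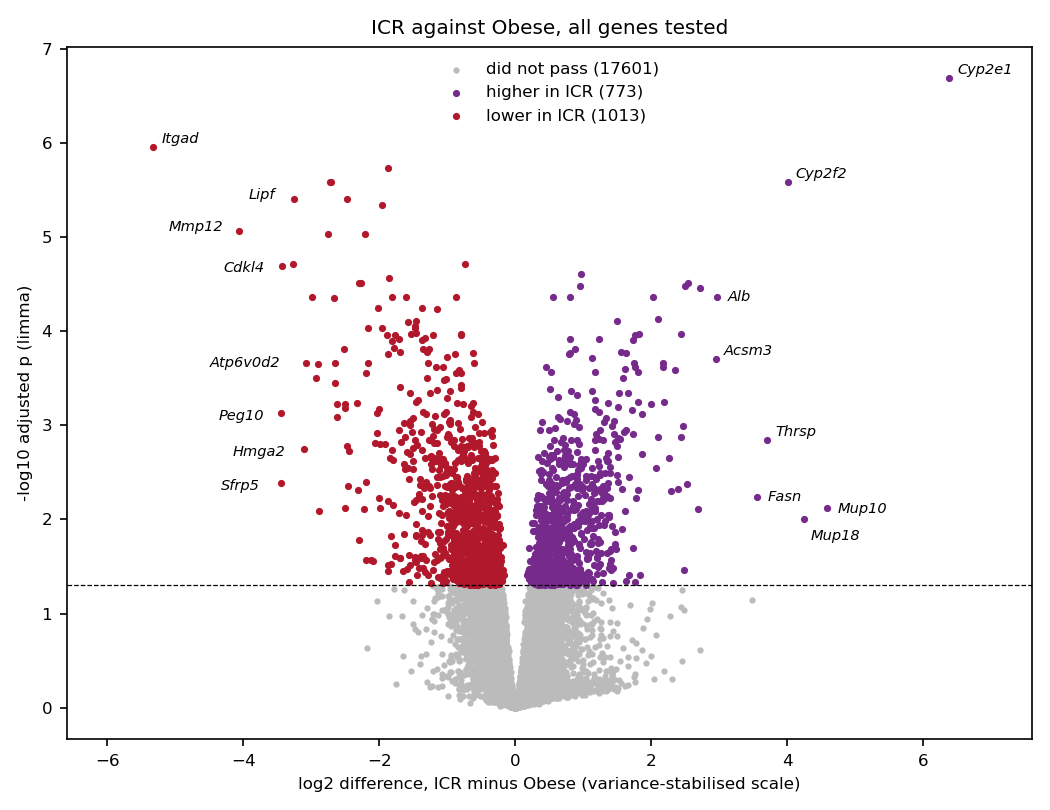
Log2 difference between ICR and Obese (horizontal axis) against -log10 of the adjusted p from limma (vertical axis) for the 19387 genes tested, with the threshold of 0.05 as a dashed line. Cyp2e1 stands farthest to the right at 6.38 and Itgad farthest to the left at -5.32.

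The gene with the largest rise was Cyp2e1 (chr7:140763739-140774987, plus strand, mm10), a cytochrome P450 best known from liver that oxidises ethanol, acetone and other small molecules. Its normalized counts were 84254, 59769, 42271, 98432 and 42474 in ICR and 210.3, 369.8, 1341, 1118 and 1497 in Obese. Every ICR library lay above every Obese library, and the ICR mean was 72.1 times the Obese mean (log2 difference 6.38 ± 0.55 (SE), adjusted p = 2.05e-07). Cyp2f2 (chr7:27119909-27133660, plus strand), a P450 known from the club cells of the airway, read 3479.6, 3469, 3615, 5909 and 1992 in ICR and 111, 216, 227, 379 and 121 in Obese. The groups did not overlap here either, with ICR 5 the lowest of the ICR libraries and Obese 4 the highest of the Obese ones (log2 difference 4.00 ± 0.42 (SE), adjusted p = 2.61e-06). Alb (chr5:90460897-90476602, plus strand), the gene of serum albumin, had 2831, 3719, 3491, 2508 and 1767 counts in ICR and 510.1, 166, 239, 358 and 525 in Obese, a 7.96-fold difference of means (log2 difference 2.97 ± 0.40 (SE), adjusted p = 4.34e-05).

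Mup10 and Mup18, major urinary proteins that carry pheromones and are made mainly in liver, also rose. Mup10 had 4752, 1936, 285, 4878 and 1618 counts in ICR and 14.8, 62.7, 66.7, 26.1 and 179 in Obese (log2 difference 4.58 ± 1.08 (SE), adjusted p = 0.00763). ICR 3 was far below the other 4 ICR libraries, yet above every Obese library, and Mup18 (log2 difference 4.25 ± 1.04, adjusted p = 0.00995) was likewise lowest in ICR 3. The Mup genes are near-identical copies, so reads may have been divided among them and their single values are uncertain. Of 22 genes typical of liver, 15 could be tested. Against 3.99% of all genes higher and 5.23% lower, 5 were higher (Cyp2e1, Mup10, Mup18, Cyp2f2 and Alb) and 1 lower (Serpina1a, -0.75 ± 0.20, adjusted p = 0.017). The median of the 15 was 0.76 against 0.00 over all genes tested. The list was chosen with earlier results of these data known and holds the given markers Alb and Cyp2f2. Its count and median therefore repeat the genes above and are no separate support. The counts were 6 and 2 without the libraries of low B cell mean, 4 and 0 without those of high muscle mean and 5 and 0 without lane 4. Other defining transcripts of hepatocytes were near 0: Apoa1 stayed at or under 3.76 counts, Apoa2 at or under 7.54 and Ahsg at or under 24.3 in all 10 libraries. Fgb, a fibrinogen chain, differed by 0.55 (adjusted p = 0.618). Acsm3 and Acsm5, mitochondrial ligases that activate medium-chain fatty acids, were among the 12 largest rises: Acsm3 read 802, 1029.8, 339, 1023 and 654 in ICR and 88.9, 34.5, 53.0, 105 and 98.8 in Obese (2.95 ± 0.45, adjusted p = 0.000196), and Acsm5 rose by 2.50 ± 0.32 (adjusted p = 3.28e-05).

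**Figure D2:**
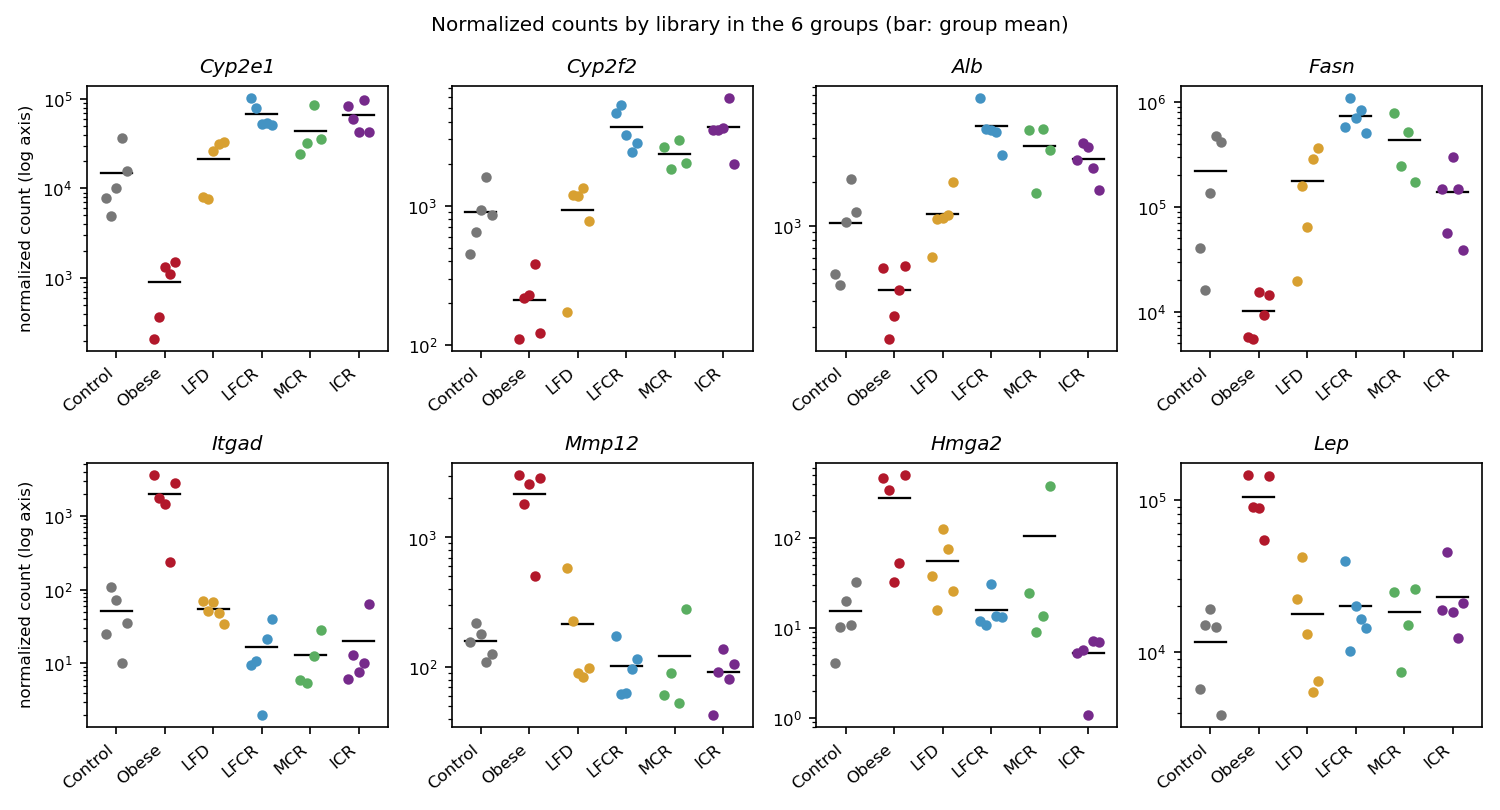
Normalized counts (log axis) of 8 genes in each library of the 6 groups, with bars at the group means. No ICR library overlaps the Obese libraries in any of the 8 genes, against 4.32% of all genes with ICR above and 4.52% below. Alb ran from 1767 to 3719 in ICR and from 166 to 525 in Obese.

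Genes of de novo lipogenesis were higher in ICR. Of 22 genes of this list, 10 were higher and 0 lower, against 3.99% and 5.23% of all genes, and the median difference was 1.43. Fasn (chr11:120805846-120824547, minus strand), the synthase that builds palmitate, read 149889, 56692, 298487, 147308 and 39208 in ICR and 5726, 5526, 15363, 9256 and 14415 in Obese. The lowest ICR library, ICR 5, lay above the highest Obese library, Obese 3, and the means differed 13.8-fold (log2 difference 3.55 ± 0.81 (SE), adjusted p = 0.00579). Thrsp (Spot 14), a small nuclear protein that accompanies lipogenesis, had 15259.8, 14123, 23326, 13729.9 and 7475 counts in ICR and 840.3, 458, 1134, 1328 and 2099.9 in Obese (log2 difference 3.70 ± 0.70 (SE), adjusted p = 0.00144). The 2 acetyl-CoA carboxylases, which make malonyl-CoA, rose together: Acaca by 2.68 ± 0.63 (adjusted p = 0.0078) and Acacb by 2.52 ± 0.55 (adjusted p = 0.00422). Acaca ran from 14426 to 74764 in ICR, with ICR 3 far above the rest, and from 3216 to 5599.6 in Obese. ICR 3 was the highest ICR library in Fasn and Thrsp as well.

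The other lipogenic genes past the test were Aacs, which activates acetoacetate for lipid synthesis (2.25 ± 0.45, adjusted p = 0.00221), the desaturase Scd1 (1.73 ± 0.47, 0.0202), the glucose-responsive factor Mlxipl or ChREBP (1.47 ± 0.40, 0.0207), the insulin-responsive factor Srebf1 (1.07 ± 0.30, 0.0259), Pnpla3 (1.67 ± 0.51, 0.0391) and the pentose pathway enzyme Tkt (1.63 ± 0.51, 0.0448). Aacs showed little spread, with 7061, 6109.6, 5309.9, 5428 and 4681 counts in ICR and 1139, 864, 1214, 1409.5 and 1278 in Obese. The ATP citrate lyase gene Acly and the elongase gene Elovl6 did not pass, with ICR values of 16739.8 ± 22564 and 8364 ± 10571 (SD, n = 5), a spread wider than the mean, against 5324 ± 331 and 821 ± 161 in Obese. G6pdx and Pgd, which supply NADPH, differed by -0.62 and -0.18 and did not pass. The count of 10 fell to 5 without Obese 2, to 6 without lane 4 and to 4 without the libraries of high muscle mean, among which Fasn, Thrsp and Acacb still passed. With single libraries left out, the calls lost were Scd1 without ICR 4 or Obese 2 (adjusted p up to 0.0649), Mlxipl without ICR 4 or Obese 2 or 3 (adjusted p up to 0.0629) and Srebf1 without ICR 1 or Obese 2 (adjusted p up to 0.0719). Lost too were Pnpla3 in every omission but ICR 5 and Obese 3 and 5 (adjusted p up to 0.12) and Tkt in every omission but ICR 2 and 5 (adjusted p up to 0.132).

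Promoters of 3 lipogenic genes that were higher in ICR are shown, chosen because all 3 hold the CCAAT box, a common element bound by the factor NF-Y. The sequences are the 250 bases before the RefSeq start (GRCm38.p6), 5′ to 3′ on the gene's strand, with each CCAAT (or ATTGG on the other strand) in capitals.
Fasn (chr11:120824548-120824797, minus strand): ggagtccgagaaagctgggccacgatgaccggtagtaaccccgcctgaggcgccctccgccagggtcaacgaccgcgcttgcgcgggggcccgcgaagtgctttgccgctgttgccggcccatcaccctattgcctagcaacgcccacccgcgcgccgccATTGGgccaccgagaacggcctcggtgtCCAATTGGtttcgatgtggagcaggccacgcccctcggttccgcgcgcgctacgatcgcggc
Thrsp (chr7:97417551-97417800, minus strand): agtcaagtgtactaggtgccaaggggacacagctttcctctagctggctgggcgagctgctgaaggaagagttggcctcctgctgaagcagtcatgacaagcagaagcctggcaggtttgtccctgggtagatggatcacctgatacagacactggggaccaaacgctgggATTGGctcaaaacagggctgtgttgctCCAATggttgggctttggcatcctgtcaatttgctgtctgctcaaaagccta
Acacb (chr5:114165268-114165517, plus strand): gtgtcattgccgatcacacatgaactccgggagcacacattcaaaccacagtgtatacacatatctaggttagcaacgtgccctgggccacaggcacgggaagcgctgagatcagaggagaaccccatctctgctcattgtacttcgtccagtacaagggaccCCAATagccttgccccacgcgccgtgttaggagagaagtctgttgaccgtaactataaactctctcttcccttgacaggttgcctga
The Fasn window held 3 matches, of which a CCAAT and an ATTGG run into each other at 62 to 55 bases before the start. Thrsp held 2 and Acacb 1, all within 90 bases of the start. Of the 22 lipogenic genes 19 had a promoter in the RefSeq table, and 11 of the 19 held the letters, against 33.8% of all 32851 promoters. The 11 were Acacb, Fasn, Mlxipl, Pnpla3, Srebf1 and Thrsp, which passed as higher, and Acss2, Elovl5, Me1, Pgd and Slc25a1, which did not pass. These matches describe the letters alone.

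Genes of triglyceride assembly were higher too. Of 11 genes tested 5 were higher and 0 lower, against 3.99% and 5.23% of all genes, with a median of 1.06. Pck1, which supplies glycerol 3-phosphate from pyruvate in fat, had 94434, 89467, 45423, 86874 and 73400.4 counts in ICR and 33629, 21249.6, 25657, 26982 and 41383 in Obese (log2 difference 1.38 ± 0.34 (SE), adjusted p = 0.00935). No Obese library reached the lowest ICR library, ICR 3. Lpin1, a phosphatidic acid phosphatase, rose by 1.37 ± 0.33 (adjusted p = 0.00889), the first acyltransferases Gpam and Gpat4 by 1.27 ± 0.29 (0.00634) and 0.78 ± 0.22 (0.0225), and Mogat1 by 1.06 ± 0.30 (0.0259). None of the 5 passed without the libraries of high muscle mean, and without lane 4 1 passed. When 1 library was omitted, the calls lost were Gpat4 without ICR 1 or 2 or Obese 2 or 3 (adjusted p up to 0.0729) and Mogat1 without ICR 1 or 2 or Obese 1 or 2 (adjusted p up to 0.0808).

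Lipolysis genes moved singly. Adrb3, the beta-3 adrenergic receptor through which noradrenaline starts lipolysis in white fat, had 11695, 7823, 6299, 11120.2 and 9615 counts in ICR and 1363, 533, 1038, 1873 and 3226 in Obese (log2 difference 2.72 ± 0.35 (SE), adjusted p = 3.46e-05). The Obese libraries themselves spread from 533 in Obese 2 to 3226 in Obese 5, and all lay below ICR. Pde3b, the phosphodiesterase by which insulin restrains lipolysis, rose by 1.21 ± 0.25 (adjusted p = 0.00238). Hilpda, an inhibitor of the main triglyceride lipase, fell by 1.27 ± 0.19 (0.000154), from 474 ± 188 to 172 ± 34.7 counts. The lipases themselves did not pass: Pnpla2 differed by 0.93 ± 0.30 (adjusted p = 0.0519) and Lipe by 0.44 ± 0.28 (0.386). Of 11 fatty acid uptake genes only Acsl1, which activates long-chain fatty acids, passed (1.30 ± 0.33, adjusted p = 0.0114), and Cd36, Lpl and Fabp4 differed by -0.19, 0.13 and 0.26. Slc2a4, the insulin-regulated glucose transporter GLUT4, rose by 1.20 ± 0.37 (adjusted p = 0.0381), with 6069.9, 6801, 6379, 5811 and 4583 counts in ICR and 3327, 1603, 2292, 2139 and 4110.4 in Obese, and the hexokinase Hk2 by 0.91 ± 0.28 (0.0406). The phosphofructokinase Pfkp fell from 2666 ± 376 to 1973 ± 203 counts (-0.42 ± 0.09, 0.00351). These were 2 higher and 1 lower of 14 hexose entry genes. Without the libraries of low B cell mean 5 lipolysis genes and 3 uptake genes were higher, and 1 hexose entry gene. Without those of high muscle mean 0 uptake and 0 hexose entry genes were higher, and 0 hexose entry genes without lane 4. Omitting 1 library at a time, the calls lost were Slc2a4 in every omission but ICR 5 and Obese 1 and 5 (adjusted p up to 0.112) and Hk2 in every omission but ICR 5 (adjusted p up to 0.103).

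Several mitochondrial genes were higher by small amounts. Of 25 genes of the citrate cycle and pyruvate entry, 7 rose and 0 fell, against 3.99% and 5.23% of all genes. Of the 25 differences 24 were positive (median 0.58). Suclg2, a subunit of succinyl-CoA synthetase, read 2796, 2898, 2806, 2736 and 2347 in ICR and 1867, 1477, 1741, 1675 and 1743 in Obese (log2 difference 0.67 ± 0.13 (SE), adjusted p = 0.00151). Idh3b and Idh3g, subunits of the NAD-dependent isocitrate dehydrogenase, rose by 0.75 ± 0.16 (0.00404) and 0.58 ± 0.16 (0.0238), Sdha and Sdhb of succinate dehydrogenase by 0.66 ± 0.20 (0.0368) and 0.67 ± 0.20 (0.0304), Pdha1 of pyruvate dehydrogenase by 1.04 ± 0.32 (0.0382) and Dlst by 0.49 ± 0.16 (0.0462). The count was as low as 2 when ICR 1, ICR 4 or Obese 2 was left out, and 2 without lane 4 or without the libraries of high muscle mean. In oxidative phosphorylation 40 of 42 differences were positive, with a median of 0.38. Against 3.99% of all genes higher, 5 of the 42 passed, all higher: Atp5c1 (0.64 ± 0.15, adjusted p = 0.0059), Uqcrh (0.51 ± 0.13, 0.0152), Ndufa10 (0.66 ± 0.19, 0.0247), Uqcrc2 (0.59 ± 0.17, 0.0291) and Ndufb10 (0.51 ± 0.16, 0.0387). That count became 0 without the libraries of high muscle mean, 3 without lane 4 and 10 without those of low B cell mean. Obese 2, the library of highest muscle mean, was the lowest of all in Idh3b, Idh3g and Uqcrh. Ppargc1a, a coactivator of mitochondrial genes and the only one of 13 thermogenic genes to pass, rose from 171 ± 62.7 to 448 ± 102 counts (log2 difference 1.30 ± 0.28 (SE), adjusted p = 0.00443). The thermogenic list had 2 higher genes without the libraries of low B cell mean, without ICR 5 or without Obese 1. In the fits lacking 1 library, the calls lost were Idh3g without ICR 1 or 4 or Obese 2 (adjusted p up to 0.0769), Sdha in every omission but ICR 5 and Obese 1 (adjusted p up to 0.096) and Sdhb in every omission but ICR 5 and Obese 1 and 5 (adjusted p up to 0.0848). Lost too were Pdha1 in every omission but ICR 5 and Obese 1 (adjusted p up to 0.101), Dlst in every omission but ICR 5 (adjusted p up to 0.118) and Ndufa10 without ICR 1, 3 or 4 or Obese 2 (adjusted p up to 0.0706). So were Uqcrc2 without ICR 1, 2 or 3 or Obese 2 or 5 (adjusted p up to 0.078) and Ndufb10 in every omission but ICR 5 and Obese 1 and 5 (adjusted p up to 0.111).

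Transcripts of branched-chain amino acid breakdown were higher too: 8 of 18 genes rose and 0 fell, against 3.99% and 5.23% of all genes. The median was 0.60. Bcat2, the transaminase of the first step, had 4184, 3943, 2784, 3289 and 2569.5 counts in ICR and 1377, 1036, 1351, 1189.9 and 1826 in Obese (log2 difference 1.29 ± 0.24 (SE), adjusted p = 0.00144). Ivd of the leucine branch rose by 1.17 ± 0.22 (0.00143), Hsd17b10 of the isoleucine branch by 0.97 ± 0.19 (0.00228), and Aldh6a1 and Hibch of the valine branch by 1.15 ± 0.27 (0.00709) and 1.03 ± 0.25 (0.0103). Mccc1, Acadsb and Dbt completed the 8, at 0.83 ± 0.22 (0.0154), 0.81 ± 0.23 (0.0285) and 0.68 ± 0.20 (0.0279). Without the libraries of low B cell mean 13 passed, 3 without those of high muscle mean and 5 without lane 4. Transcripts of fatty acid oxidation were divided, 2 genes up and 2 down of 21, against 3.99% and 5.23% of all genes. Cpt2 and Echs1 rose by 0.91 ± 0.26 (0.0243) and 0.94 ± 0.27 (0.0293), whereas Cpt1a, the carnitine transferase that admits fatty acids to mitochondria, fell from 6043 ± 595 to 4043 ± 485 counts (log2 difference -0.58 ± 0.13 (SE), adjusted p = 0.00424). The 2 up and 2 down became 3 and 1 without the libraries of low B cell mean, 0 and 1 without those of high muscle mean, and 0 and 2 without lane 4. In cholesterol synthesis Fdft1 rose (0.75 ± 0.24, 0.0458) and Hmgcs1 (-0.82 ± 0.26, 0.047) and Hsd17b7 (-0.57 ± 0.18, 0.047) fell among 20 genes, against 3.99% higher and 5.23% lower of all genes. The counts of cholesterol genes higher and lower were 1 and 0 without the libraries of low B cell mean, 0 and 0 without those of high muscle mean, and 0 and 1 without lane 4. By single omissions, the calls lost were Acadsb in every omission but ICR 5 and Obese 1 and 5 (adjusted p up to 0.0709), Dbt in every omission but ICR 1 and 5 and Obese 1 and 5 (adjusted p up to 0.0866) and Cpt2 without ICR 1 or 4 or Obese 2 (adjusted p up to 0.0707). Lost too were Echs1 without ICR 1 or 2 or Obese 2 or 3 (adjusted p up to 0.0862), Fdft1 in every omission but ICR 5 and Obese 1 and 5 (adjusted p up to 0.12) and Hmgcs1 in every omission but Obese 4 (adjusted p up to 0.153). So was Hsd17b7 in every omission but ICR 3 and Obese 4 (adjusted p up to 0.152).

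**Figure D3:**
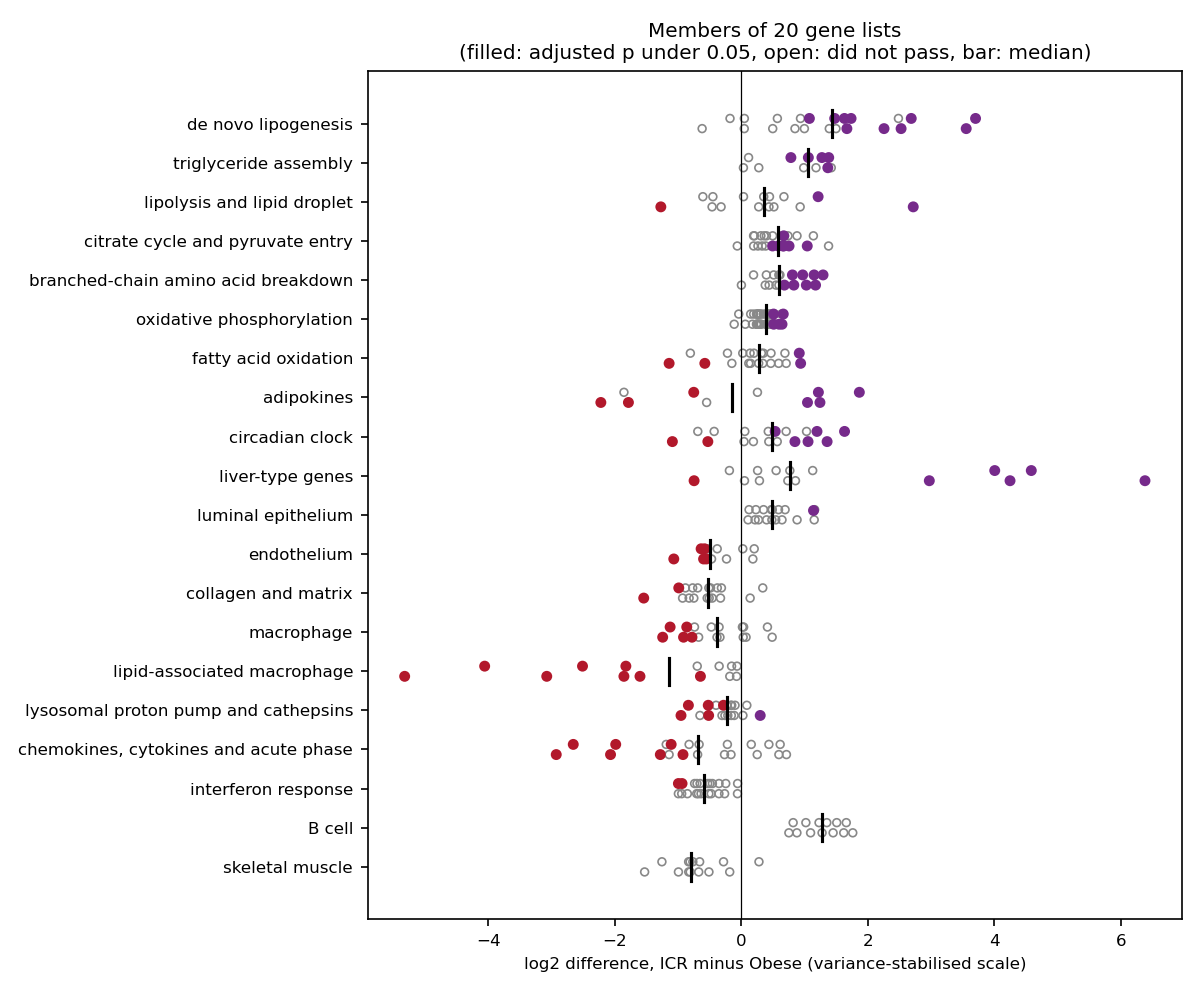
Log2 difference between ICR and Obese for each tested member of 20 gene lists, filled where the adjusted p was under 0.05, with a bar at the list's median. Lipogenesis has 10 filled points to the right of 0, lipid-associated macrophages 8 to the left, and the B cell and skeletal muscle lists none.

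Adipocyte hormones changed in both directions, with 4 of 10 higher and 3 lower, against 3.99% and 5.23% of all genes. Leptin (Lep), which reports fat mass to the brain, had 18855, 45062, 18444, 12402 and 20956 counts in ICR and 146334, 89864, 88661, 54354 and 143078 in Obese, a 4.51-fold difference of means (log2 difference -2.22 ± 0.53 (SE), adjusted p = 0.00774). ICR 2 was the highest ICR library and stayed below Obese 4, the lowest Obese one. Apln (apelin) fell by 1.79 ± 0.27 (0.00015) and Metrnl by 0.75 ± 0.24 (0.0435). Higher in ICR were Cfd, the complement factor adipsin (163035, 126081, 85744, 153236 and 123723 in ICR, 50035, 17931, 17371, 39932 and 83909 in Obese, log2 difference 1.86 ± 0.37 (SE), adjusted p = 0.00202), Nampt (1.04 ± 0.21, 0.00227), Rbp4 (1.24 ± 0.36, 0.0297) and Retn or resistin (1.22 ± 0.36, 0.0322). Adipoq did not pass, at 57919 ± 6819 in ICR and 50627 ± 17806 in Obese (log2 difference 0.25 ± 0.28 (SE), adjusted p = 0.647). The 4 higher and 3 lower adipokines became 2 and 1 without the libraries of high muscle mean and 2 and 2 without lane 4. Of 15 adipogenic transcription factors 2 rose, Srebf1 and Stat5a (0.45 ± 0.14, 0.0363), against 3.99% of all genes. Pparg differed by 0.73 ± 0.27 (0.0926). Of these factors 4 rose without the libraries of low B cell mean or without ICR 3, and 0 without those of high muscle mean or without lane 4. Among genes of insulin and IGF signalling, Akt2 (0.63 ± 0.16, 0.015) and Pik3r1 (0.65 ± 0.19, 0.0343) rose and Igfbp2 (-1.36 ± 0.38, 0.0246) fell, of 16, against 3.99% and 5.23% of all genes. Of these 16 genes 4 were higher and 0 lower without the libraries of low B cell mean, 0 and 0 without those of high muscle mean, and 0 and 1 without lane 4. With single libraries left out, the calls lost were Metrnl in every omission but ICR 1 and 2 and Obese 4 (adjusted p up to 0.131), Rbp4 in every omission but ICR 3 and 5 and Obese 3 and 5 (adjusted p up to 0.0866) and Retn in every omission but ICR 3 and 5 and Obese 4 and 5 (adjusted p up to 0.109). Lost too were Stat5a in every omission but ICR 3 and 5 and Obese 4 (adjusted p up to 0.105), Akt2 without Obese 2 (adjusted p up to 0.0511) and Pik3r1 in every omission but ICR 5 and Obese 1, 4 and 5 (adjusted p up to 0.117). So was Igfbp2 without ICR 2 or 3 or Obese 2, 3 or 5 (adjusted p up to 0.0844).

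Of 16 imprinted growth genes 3 were lower in ICR and 0 higher, against 5.23% and 3.99% of all genes, with a median of -0.17. Mest, an imprinted gene whose transcript rises as adipocytes enlarge, had 1853, 9737, 1487, 1894 and 7938 counts in ICR and 31306, 24140.5, 28065, 13767 and 31645 in Obese (log2 difference -2.88 ± 0.69 (SE), adjusted p = 0.00821). ICR 2 and ICR 5 stood well above the other 3 ICR libraries, and all 5 stayed under the lowest Obese library, Obese 4. Peg10 (chr6:4747306-4760517, plus strand), an imprinted gene derived from a retrotransposon, read 443, 601, 365, 417 and 510.4 in ICR and 12752, 13254, 2483, 1017 and 9332 in Obese (log2 difference -3.44 ± 0.60 (SE), adjusted p = 0.000743). Its Obese values spread from 1017 in Obese 4 to 13254 in Obese 2. Zim1 fell too (-2.12 ± 0.60, 0.0266). Without the libraries of low B cell mean 2 of the list were higher and 2 lower, and without those of high muscle mean 1 was lower. Sfrp5, a secreted Wnt antagonist of adipocytes, had 1241, 3396, 466, 1059 and 1909 counts in ICR and 25435, 13463, 9825, 8125 and 24935 in Obese (log2 difference -3.45 ± 0.75 (SE), adjusted p = 0.00413). The groups were apart, with 3396 in ICR 2 the nearest to 8125 in Obese 4. When 1 library was omitted, the call lost was Zim1 in every omission but ICR 2 and 5 and Obese 3 and 4 (adjusted p up to 0.0904).

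Hmga2 (chr10:120361275-120476469, minus strand), a chromatin protein of dividing mesenchymal and embryonic cells that is also expressed in some tumors, was close to absent in ICR. It had 5.33, 5.64, 1.08, 7.16 and 7.05 counts in ICR and 461, 339, 32.5, 52.3 and 509 in Obese (log2 difference -3.11 ± 0.60 (SE), adjusted p = 0.0018). The Obese libraries fell into a low pair, Obese 3 and Obese 4, and 3 high libraries of 339 or more, and even the low pair exceeded every ICR library. Hmga2 was the only one of 15 fibroblast and adipocyte progenitor genes to pass. Pdgfra, Cd34 and Dpp4, which mark these cells, differed by -0.12, -0.09 and 0.09, and the median of the list was -0.09. Several falls were in genes known from other organs. Cdkl4, a kinase gene, went from 865 ± 538 to 46.9 ± 12.4 counts (-3.44 ± 0.42, adjusted p = 2.01e-05). Unc79, part of a sodium leak channel of neurons, went from 679 ± 230.4 to 66.2 ± 40.1 (-2.99 ± 0.40, 4.34e-05). Tph2, the neuronal enzyme of serotonin synthesis, read 109, 262, 657, 41.1 and 326 in Obese and at most 7.75 in ICR (-3.28 ± 0.40, 1.92e-05). Lipf, gastric lipase, read 216, 317, 311, 38.8 and 173 in Obese and at most 5.64 in ICR (-3.25 ± 0.35, 3.94e-06). Prkag3, the muscle-type gamma subunit of AMP-activated kinase, had 23.1, 71.4, 21.6, 29.7 and 49.3 counts in ICR and 527, 445, 333, 244 and 699 in Obese (log2 difference -2.91 ± 0.45 (SE), adjusted p = 0.000223). Obese 2, with 445 counts, was the library of highest muscle mean, and the part of muscle in these counts was not tested.

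**Figure D4:**
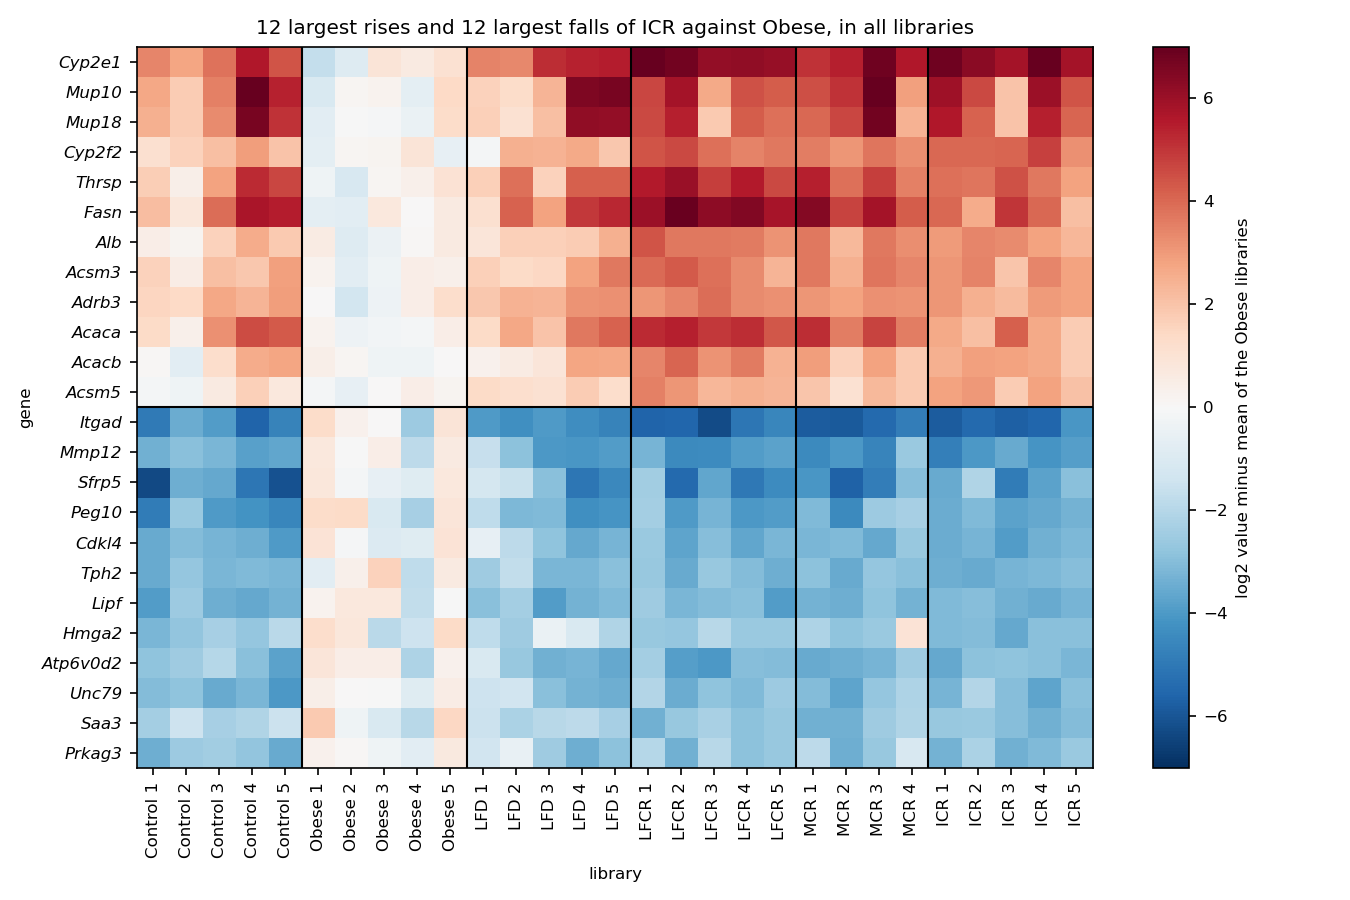
Log2 value minus the mean of the Obese libraries for the 12 largest rises and 12 largest falls of ICR against Obese (rows) in all 29 libraries (columns, by group). The rows were chosen from the ICR and Obese columns, and Obese 4 is the bluest Obese column in Itgad, Mmp12 and Atp6v0d2.

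Genes of lipid-associated macrophages, which engulf the lipid of dying or overfilled adipocytes, fell in ICR: 8 of 14 were lower, against 5.23% of all genes. Of the list 0 were higher, 0 of the 14 differences were positive, and the median was -1.15. In tissue RNA such a fall may mean fewer of these cells or less RNA of each, which cannot be told apart here. The list was chosen with earlier results of these data known and holds the given marker Mmp12. Its count and median therefore partly repeat the single genes below and are no separate support. Itgad (chr7:128154376-128223816, plus strand), the integrin alpha D chain of macrophages, had 6.21, 13.2, 7.54, 10.2 and 63.4 counts in ICR and 3648, 1778, 1474, 234 and 2801 in Obese (log2 difference -5.32 ± 0.51 (SE), adjusted p = 1.10e-06). ICR 5 was the highest of ICR and Obese 4 by far the lowest of Obese, and the groups did not overlap. Mmp12 (chr9:7344381-7369499, plus strand), macrophage elastase, had 42.6, 92.1, 138, 80.8 and 105 in ICR and 3060.1, 1822, 2586, 503 and 2877 in Obese, 23.7 times as much on average (log2 difference -4.06 ± 0.47 (SE), adjusted p = 8.63e-06). Atp6v0d2, a proton pump subunit of macrophages and osteoclasts, had 41.7, 80.8, 83.0, 75.7 and 60.6 in ICR and 1394, 1041, 1060.3, 149 and 941 in Obese (log2 difference -3.08 ± 0.48 (SE), adjusted p = 0.000216). Obese 4 was again the lowest Obese library in both. Trem2, the lipid receptor that defines these cells, fell from 532 ± 251 to 62.4 ± 17.2 counts (-2.51 ± 0.38, 0.000153), Gpnmb by 1.83 ± 0.47 (0.0148), Lgals3 (galectin 3) by 1.60 ± 0.21 (4.34e-05), Dcstamp by 1.86 ± 0.23 (2.68e-05) and the acid lipase Lipa by 0.65 ± 0.15 (0.0058). Spp1 and Cd9 did not pass (-0.35 and -0.07). The list had 7 calls without the libraries of low B cell mean, 7 without those of high muscle mean and 7 or 8 when 1 library was left out. Omitting 1 library at a time, the call lost was Gpnmb without Obese 1 (adjusted p up to 0.0509).

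General macrophage genes were lower in 5 of 17, against 5.23% of all genes, with a median of -0.39 and 0 higher. Adgre1, which encodes the F4/80 antigen, had 989, 913, 824, 741 and 806 counts in ICR and 2538, 2115, 1871, 886 and 2691 in Obese (log2 difference -1.13 ± 0.27 (SE), adjusted p = 0.00857). The groups overlapped through Obese 4. Itgam (-0.78 ± 0.22, 0.0263), Cd68 (-0.92 ± 0.27, 0.0312), Fcgr1 (-0.86 ± 0.25, 0.028) and Itgax or CD11c (-1.25 ± 0.40, 0.0472) also passed. The count was 1 without ICR 2, without Obese 1 and without the libraries of low B cell mean, 1 without lane 4, and 0 without those of high muscle mean. Lyz2, Mrc1 and Cd163, carried by most tissue macrophages, differed by -0.35, -0.34 and 0.41 and did not pass. In the list of lysosomal pumps and cathepsins 5 of 19 fell, against 5.23% of all genes. They were Ctsl (-0.96 ± 0.21, 0.00424), Atp6v0a1 (-0.84 ± 0.20, 0.00789), Ctsz (-0.52 ± 0.11, 0.00309), Atp6v1b2 (-0.52 ± 0.11, 0.00413) and Ctsa (-0.28 ± 0.08, 0.0306). Atp6v1d rose (0.30 ± 0.09, 0.043). The lower genes of this list numbered 4 without the libraries of low B cell mean, 3 without those of high muscle mean and 4 without lane 4, and 0 were higher in each. In the fits lacking 1 library, the calls lost were Itgam without ICR 1 or 2 or Obese 1 or 5 (adjusted p up to 0.0816), Cd68 in every omission but ICR 4 and Obese 4 (adjusted p up to 0.0885) and Fcgr1 without ICR 2 or 4 or Obese 1, 2 or 3 (adjusted p up to 0.096). Lost too were Itgax in every omission but ICR 5 (adjusted p up to 0.121), Ctsa in every omission but ICR 2, 4 and 5 and Obese 4 (adjusted p up to 0.0981) and Atp6v1d in every omission but ICR 2 and 5 (adjusted p up to 0.145).

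Chemokine and acute phase genes were lower in 7 of 21 and higher in 0, against 5.23% and 3.99% of all genes (median -0.69). Il1rn, the antagonist of the interleukin 1 receptor, had 23.1, 22.6, 36.6, 45.0 and 62.7 counts in ICR and 775, 483, 441, 71.0 and 396 in Obese (log2 difference -2.66 ± 0.41 (SE), adjusted p = 0.000216). The nearest libraries were ICR 5 and Obese 4. Ccl2 and Ccl7, which attract monocytes, fell by 1.99 ± 0.47 (0.00749) and 2.07 ± 0.39 (0.00155), and Ccl2 went from 434 ± 333 to 67.6 ± 11.9 counts. Saa3, a serum amyloid made in inflamed fat, read 474, 88.5, 42.8, 14.2 and 356 in Obese and 3.55, 3.76, 1.08, 0 and 0.705 in ICR (log2 difference -2.93 ± 0.47 (SE), adjusted p = 0.000311). Its Obese values differed widely, with Obese 1 and Obese 5 high and Obese 4 low. Ccl3, Cxcl1 and Cxcl2 completed the 7, at -0.92 ± 0.20 (0.00413), -1.11 ± 0.30 (0.0177) and -1.28 ± 0.31 (0.00917), and 4 of the list passed without the libraries of high muscle mean. Tnf and Il1b differed by 0.25 ± 0.51 (0.826) and -0.83 ± 0.35 (0.143) and did not pass. Of 22 interferon response genes all differences were negative (median -0.59) and 2 passed, against 5.23% of all genes lower: Oas1a (-0.997 ± 0.24, 0.00845), which has near-identical copies, and Bst2 (-0.94 ± 0.23, 0.00995). Without Obese 4, 7 interferon genes passed, and without the libraries of high muscle mean 0. Of 15 complement genes 2 were lower, Cfb (-0.80 ± 0.15, 0.00165) and C4b (-0.75 ± 0.24, 0.049), and 1 higher, Cfd. This stands against 5.23% lower and 3.99% higher of all genes. The list had 4 lower genes without Obese 4, and 1 without the libraries of low B cell mean or those of high muscle mean. Of 12 neutrophil and mast cell genes 2 were lower and 0 higher, against 5.23% and 3.99% of all genes. They were S100a8 (-1.77 ± 0.48, 0.0186) and S100a9 (-1.87 ± 0.55, 0.0302). Of the 12 differences 7 were positive, and the median was 0.16, so the list as a whole did not fall. Neutrophil and mast cell genes had 4 calls without the libraries of low B cell mean, 0 without those of high muscle mean and 1 without lane 4. Of 11 immediate early and heat shock genes Atf3 fell (-1.59 ± 0.31, 0.00193), and of 14 glucocorticoid and fasting genes the cell cycle inhibitor Cdkn1a (-1.12 ± 0.22, 0.00199) and the hormone Fgf21 (-0.89 ± 0.20, 0.0059). The immediate early list had 3 lower genes without Obese 4 and 2 without lane 4. The glucocorticoid list had 1 without the libraries of low B cell mean and 1 without those of high muscle mean. By single omissions, the calls lost were Cxcl1 without Obese 1 (adjusted p up to 0.0646), C4b in every omission but ICR 5 and Obese 3 and 4 (adjusted p up to 0.155) and S100a8 without Obese 3 (adjusted p up to 0.0651). Lost too was S100a9 without ICR 1 or 4 or Obese 2, 3 or 4 (adjusted p up to 0.104).

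In the stroma, Sparc, a matrix protein of fat, had 37171, 35096, 28461, 33341 and 40098 counts in ICR and 122309, 104009, 105819, 53553 and 145888 in Obese (log2 difference -1.54 ± 0.26 (SE), adjusted p = 0.000458). Col4a2 of the basement membrane fell by 0.99 ± 0.26 (0.0142). These were 2 of 18 collagen and matrix genes, against 5.23% of all genes lower, and the median of the list was -0.53. Of the list 5 passed without Obese 4 and 1 without the libraries of high muscle mean. Timp1, an inhibitor of metalloproteinases, fell by 1.40 ± 0.30 (0.00371) and Mmp23 by 1.19 ± 0.24 (0.00221). With the marker Mmp12 they made 3 lower of 13 metalloproteinase and inhibitor genes, against 5.23% of all genes. Endothelial genes were lower in 5 of 12, against 5.23% of all genes (median -0.50). Pecam1, the CD31 antigen of vessels, had 8113, 7513, 8985, 9265 and 9187 counts in ICR and 13249, 12875, 12541, 12698 and 11818 in Obese (log2 difference -0.56 ± 0.10 (SE), adjusted p = 0.000749). Its Obese libraries agreed closely and none overlapped ICR. Tie1 (-0.60 ± 0.15, 0.0145), Egfl7 (-0.58 ± 0.16, 0.0232), Esam (-0.64 ± 0.19, 0.0338) and Cldn5 (-1.07 ± 0.33, 0.0386) made up the 5, and 1 gene of the list passed without Obese 1 and 1 without the libraries of high muscle mean. Without the libraries of low B cell mean 3 passed. Kdr, Flt1 and Emcn, also endothelial, differed by 0.18, 0.02 and 0.20. With single libraries left out, the calls lost were Col4a2 without Obese 5 (adjusted p up to 0.0534), Tie1 without Obese 1 (adjusted p up to 0.052) and Egfl7 without ICR 3 or 4 or Obese 1 or 5 (adjusted p up to 0.0791). Lost too were Esam without ICR 3, 4 or 5 or Obese 1 or 5 (adjusted p up to 0.109) and Cldn5 in every omission but ICR 1 and 5 and Obese 3 and 4 (adjusted p up to 0.141).

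Genes of the epithelium were measured beside these. All 18 luminal genes differed upward, with a median of 0.48, and 1 passed, the estrogen receptor Esr1, which adipocytes also express. It had 4127, 6628, 5864, 3887 and 4266 counts in ICR and 2927, 1745, 1613, 1687 and 3748 in Obese (log2 difference 1.12 ± 0.28 (SE), adjusted p = 0.0104). The luminal mean was 10.2 to 10.7 (log2) in ICR and 9.54 to 10.1 in Obese, and with it as a covariate 1200 of the 19387 genes passed. Of the luminal genes 0 passed without the libraries of high muscle mean or without lane 4. Oxtr, the oxytocin receptor of contractile basal cells, was the only one of 7 basal genes to pass, and 5 of the 7 differences were positive. It was lower in ICR, with 3433, 2434, 4416, 2079.5 and 2502 counts in ICR and 10946, 6701, 6329.5, 5929 and 12653 in Obese (log2 difference -1.49 ± 0.34 (SE), adjusted p = 0.00646). The keratins Krt5 and Krt14 of the same cells differed by 0.36 and 0.37 and did not pass. Of 5 keratinocyte genes only Dsg1a passed, lower in ICR (-1.03 ± 0.24, 0.00616), a gene with close paralogs. The 13 B cell and 13 T cell genes had medians of 1.27 and 1.21, and 0 passed, with Obese 1 and Obese 5 far below the other libraries. Without the libraries of low B cell mean, Obese 1 and Obese 5 among them, 9 of the 13 B cell genes were lower in ICR. In that fit 1363 of all 19387 genes were lower. It leaves libraries out by the mean of these same 13 genes, so the choice itself shapes the 9 calls. They are no separate result, and with all libraries the 13 differences were positive. With the B cell mean as a covariate 3986 genes passed. The 14 muscle genes (median -0.79), 5 red blood cell genes (-0.65), 6 milk protein genes (1.18) and 18 cell cycle genes (-0.50) also had 0 calls, though 2 cell cycle genes were lower without ICR 5. Beyond these values, the part of cell mix in the results was not tested.

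The circadian clock was measured at 1 time only, and the labels do not give the hour at which the mice were killed or their last meal. The clock is a loop in which CLOCK and BMAL1 (gene Arntl) activate the Per and Cry repressors, and in which DBP, TEF and HLF carry the rhythm to other genes. Of 18 clock genes 6 were higher and 2 lower in ICR, against 3.99% and 5.23% of all genes, with a median of 0.48. On the repressor side Per2 had 3623, 4884, 3553, 3656 and 2779.6 counts in ICR and 1099, 1345, 1685, 2475 and 1572 in Obese (log2 difference 1.19 ± 0.33 (SE), adjusted p = 0.0216), Per3 rose by 1.05 ± 0.30 (0.0266) and Cry1 by 0.53 ± 0.15 (0.0288). Arntl, on the activator side, had 146, 95.8, 226, 261 and 235 in ICR and 669.6, 436, 410.5, 327 and 321 in Obese (log2 difference -1.09 ± 0.30 (SE), adjusted p = 0.0208), and Clock fell by 0.53 ± 0.17 (0.044). The groups did not overlap in any of these 5 genes, against 4.32% of all genes with ICR above and 4.52% below. Obese 4 was the library nearest to ICR in Per2, Cry1 and Clock. The output factors Hlf (2572, 3001, 3265, 2738 and 2032 in ICR, 809, 908, 971, 1449.8 and 1148 in Obese, log2 difference 1.35 ± 0.30 (SE), adjusted p = 0.00461) and Tef (0.85 ± 0.26, 0.0427) rose, and Dbp did not pass (1.03 ± 0.39, 0.0982). Per1 (0.57 ± 0.22), Cry2 (0.05 ± 0.22) and Nr1d1 (-0.43 ± 0.32) did not pass. The counts were 2 higher and 0 lower without ICR 2 or without Obese 1, 2 and 1 without the libraries of low B cell mean, 2 and 1 without lane 4, and 1 and 0 without those of high muscle mean. When 1 library was omitted, the calls lost were Per2 without ICR 2 or Obese 1 or 2 (adjusted p up to 0.0673), Per3 without ICR 1 or 2 or Obese 1 or 2 (adjusted p up to 0.0663) and Cry1 in every omission but ICR 5 and Obese 2, 3 and 4 (adjusted p up to 0.0876). Lost too were Arntl without ICR 1 or 2 or Obese 1 (adjusted p up to 0.0724), Clock in every omission but Obese 3 and 4 (adjusted p up to 0.152) and Tef in every omission but ICR 4 and Obese 4 (adjusted p up to 0.112).

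Promoters of 3 genes are shown because they hold elements through which clock factors act, the D-box of DBP, TEF and HLF and the E-box of CLOCK and BMAL1. Alb and Per3 hold D-boxes, and Cry1 holds an E-box. The windows are again the 250 bases before the RefSeq start (GRCm38.p6), with TTANGTAA or its reverse TTACNTAA (D-box), or CACGTG, which reads the same on both strands (E-box), in capitals.
Alb (chr5:90460620-90460869, plus strand): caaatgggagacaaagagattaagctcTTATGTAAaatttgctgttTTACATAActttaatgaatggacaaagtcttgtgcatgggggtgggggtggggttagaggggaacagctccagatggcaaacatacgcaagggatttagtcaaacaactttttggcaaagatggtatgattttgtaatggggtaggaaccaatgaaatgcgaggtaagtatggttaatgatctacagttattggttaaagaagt
Per3 (chr4:151044666-151044915, minus strand): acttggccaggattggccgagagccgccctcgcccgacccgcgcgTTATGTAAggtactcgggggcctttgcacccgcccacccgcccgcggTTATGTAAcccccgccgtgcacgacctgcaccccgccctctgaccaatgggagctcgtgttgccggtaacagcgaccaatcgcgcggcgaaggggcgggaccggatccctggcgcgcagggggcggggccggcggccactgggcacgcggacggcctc
Cry1 (chr10:85185055-85185304, minus strand): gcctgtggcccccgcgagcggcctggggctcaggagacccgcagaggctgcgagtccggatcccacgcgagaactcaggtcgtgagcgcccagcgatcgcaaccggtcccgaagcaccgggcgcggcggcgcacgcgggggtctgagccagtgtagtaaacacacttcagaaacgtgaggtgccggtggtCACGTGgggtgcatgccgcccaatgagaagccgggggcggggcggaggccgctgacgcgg
Of all 32851 promoters 2.06% held the D-box and 6.02% the E-box. Of 18 clock genes 15 were matched in the RefSeq table, 1 of them with a D-box (Per3) and 5 with an E-box (Bhlhe41, Ciart, Cry1, Per1 and Tef). Of 22 liver-type genes 16 were matched, and Alb alone held a D-box in this window. These matches too describe the letters alone, and whether clock factors act on these genes here was not tested.

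**Figure D5:**
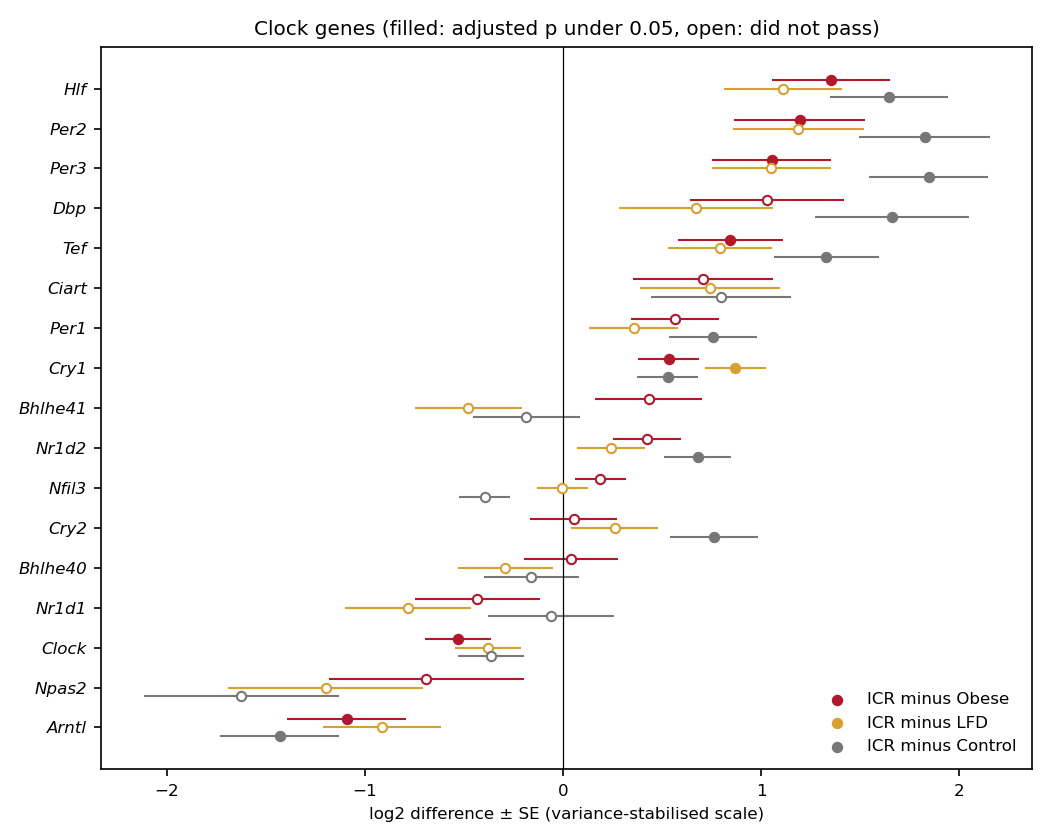
Log2 difference of ICR from Obese, LFD and Control (colours) for 17 clock genes, with bars of 1 SE and filled points where the adjusted p was under 0.05. Cry1 is 0.87 above LFD, and Per2, Per3 and Hlf lie to the right of 0 against both Obese and Control while Arntl lies to the left of both.

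Set beside the unrestricted low-fat diet, ICR differed in 6 of 19387 genes (0.0309%), 4 higher (0.0206%) and 2 lower, with 1671 at an unadjusted p under 0.05. Cry1 was higher in ICR, with 616 ± 70.6 counts against 333 ± 95.7 in LFD (log2 difference 0.87 ± 0.15, adjusted p = 0.0415). Sipa1l2 (0.57 ± 0.10, 0.0415) and Strip2 (0.84 ± 0.16, 0.0415) were higher too. Ifi44, an interferon response gene, was lower, at 188 ± 56.0 against 586 ± 234 (-1.47 ± 0.27, 0.0415). The other 2, named after their values were seen, were Acot3, a peroxisomal thioesterase (1.53), and the predicted gene Gm43302 (-3.18). The 6 calls depended on the fit: 0 genes passed with voom and with lane as a term, and with 1 library left out 0 to 87 passed, the 87 without LFD 2.

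Of the 104 genes named for ICR against Obese, 0 differed from LFD, and some differences were large beside their errors. Cyp2f2 had 935 ± 475 counts in LFD and 3693 ± 1406 in ICR (2.14 ± 0.42, adjusted p = 0.0774), Cyp2e1 21208 ± 12458 and 65440.2 ± 25194 (1.81 ± 0.55, 0.238), and Alb 1205 ± 502 and 2863 ± 783 (1.28 ± 0.40, 0.253). Fasn (-0.10 ± 0.81), Adrb3 (0.12 ± 0.35) and Pck1 (0.18 ± 0.34) differed less. Lep had 17856 ± 14977 counts in LFD against 23144 ± 12659 in ICR (0.64 ± 0.53). Mmp12 (-0.75 ± 0.47), Itgad (-1.06 ± 0.51) and Hmga2 (-1.54 ± 0.60) were lower in ICR without passing.

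Against the 2 diets of continuous restriction, LFCR and MCR, 1 gene of 19387 (0.00516%) differed, with 3447 at an unadjusted p under 0.05. Pmepa1, a target and inhibitor of TGF-beta signalling, had 6567 ± 1753 counts in ICR, 3126 ± 824 in LFCR and 2096 ± 734 in MCR (1.36 ± 0.22, adjusted p = 0.0357). Leaving out 1 library gave 0 to 1661 calls, with 1661 without MCR 2, 60 without LFCR 1 and 19 without ICR 3. Of the 104 named genes 0 differed. Fasn had 746525 ± 231550.0 counts in LFCR, 431513 ± 279845 in MCR and 138317 ± 102901 in ICR (-2.24 ± 0.71, 0.146), a difference that did not pass. Thrsp showed the same order (-1.16 ± 0.62, 0.313). Cyp2e1, Cyp2f2 and Lep differed by 0.28 ± 0.48, 0.29 ± 0.37 and 0.29 ± 0.46.

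Against Control, 887 of 19387 genes (4.58%) differed, 716 higher in ICR (3.69%) and 171 lower (0.882%), and of the 104 named genes 25 differed, 21 higher and 4 lower. Cyp2e1 was 2.39 ± 0.55 above Control (adjusted p = 0.0165), Cyp2f2 2.05 ± 0.42 (0.00966) and Alb 1.64 ± 0.40 (0.0205). Adipoq, which did not pass against Obese, was 0.95 ± 0.28 above Control (0.0493), a call lost in 8 of the 10 omissions of 1 library. Bcat2 (1.12 ± 0.24), Aldh6a1 (1.25 ± 0.27), Per2 (1.82 ± 0.33) and Hlf (1.64 ± 0.30) were higher, and Arntl (-1.43 ± 0.30), Oas1a (-0.93 ± 0.24), Bst2 (-0.89 ± 0.23) and Pfkp (-0.36 ± 0.09) lower. The macrophage genes Itgad, Mmp12 and Atp6v0d2 differed from Control by -0.81 ± 0.51, -0.69 ± 0.47 and -0.27 ± 0.48 and did not pass. Fasn (-0.06 ± 0.81) and Lep (1.09 ± 0.53) did not pass either, and Mest had 4582 ± 3939 counts in ICR and 1036 ± 921 in Control (2.11 ± 0.69, 0.0719). The calls lost by omitting 1 library were Cyp2e1 without ICR 2 or 4 or Control 1 or 2 (adjusted p up to 0.0674), Alb without ICR 1 or 2 or Control 1 or 2 (adjusted p up to 0.0856) and Bcat2 without ICR 2 or Control 1 or 2 (adjusted p up to 0.0564). Lost too were Aldh6a1 without ICR 2 or Control 1 or 2 (adjusted p up to 0.0547), Oas1a without ICR 1, 2 or 4 or Control 1 or 2 (adjusted p up to 0.0865), Bst2 without ICR 1, 2, 3 or 4 or Control 1, 2 or 5 (adjusted p up to 0.0901) and Pfkp without ICR 1, 2 or 4 or Control 1, 2 or 5 (adjusted p up to 0.0849). The calls of Cyp2f2, Per2, Hlf and Arntl held in all 10 omissions. The count of 25 ranged from 5, without ICR 2, Control 1 or Control 2, to 29, without Control 4. These comparisons share the ICR libraries with the first and are not independent of it.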

How the data were processed

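Total RNA of mouse mammary fat was sequenced as stranded paired reads of 76 bases, per the labels' protocols. The submitters' processing notes name TopHat2 2.0.7, HTSeq 0.5.3p9, DESeq2 and mm10, and the sources used here do not give the annotation or the use of strand in counting. The authors deposited log2 values of 30818 genes in 29 libraries. Undoing a variance-stabilising transform with the shared lowest value as 0 reads gave whole reads for 100% of values (within 0.01) and the normalized counts printed here. No source used here names the transform, so it is inferred from the values. Genes with a normalized count of 10 or more in at least 4 libraries were tested. Group means over all 29 libraries were fitted with limma 3.58.1 in R 4.3.3 (with statmod 1.5.0), using trend and robust moderation and Benjamini-Hochberg adjustment over 19387 genes at a threshold of 0.05. It was tested on simulated data. Lanes were read from column names. The depth of 16403903 to 49026986 reads is without molecular identifiers and enters as a total. Gene coordinates are from GENCODE vM21 (GRCm38). The named genes are the 12 largest rises and 12 largest falls with a mean count of 50 or more, the markers Cyp2f2, Alb, Mmp12 and Hmga2, the readouts Lep, Adipoq, Adgre1, Mest and Fasn, up to 4 genes of each of 39 lists, and up to 6 rises and 6 falls against LFD and against LFCR and MCR. Some genes that met these rules are counted but not reported here. Members and lists were chosen with earlier results of these data known. Alternatives were other filters, voom on the recovered reads, other scalings, lane and cell-marker covariates, and libraries left out.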

Additional observations from a re-analysis of the deposited data

Results flagged for a closer look

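Of 204 groups of 5 values (the reported named genes in ICR and in Obese), 11 held a library whose gap to its nearest neighbour took a share of the group's range above Dixon's 95% critical value, and chance alone sets apart about 1 in 20. ICR 5 was that library in 4 of them: highest in Itgad (63.4 normalized counts), Oas1a (335) and Timp1 (79.0), and lowest in Suclg2 (2347). Obese 2, the library of highest skeletal muscle mean, was lowest in Idh3b (2647), Idh3g (2525) and Uqcrh (2256), and the part of muscle in this was not tested. Obese 4 was lowest in Atp6v0d2 (149) and Cd68 (1513), ICR 4 in Hilpda (113) and ICR 3 in Hmga2 (1.08).

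By the test of the difference itself (limma, Benjamini-Hochberg adjustment), the change from Obese differed between ICR and LFD for Cry1 (log2 difference 0.87 higher in ICR), Strip2 (0.84), Sipa1l2 (0.57) and Ifi44 (-1.47), each at an adjusted p of 0.0415. Between ICR and the continuously restricted diets it differed for Pmepa1 (1.36, adjusted p = 0.0357).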

How the results depend on the processing

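Of 19387 genes, 1786 passed between ICR and Obese. That count was 3986 with the B cell mean as a covariate, 655 without the libraries of high muscle mean (chosen after seeing the data) and 4500 with array quality weights, where 55.49% of calls were higher in ICR against 43.28%. Without lane 4 (also chosen after seeing the data) 31.97% were higher. Leaving out 1 library gave 1192 (without ICR 4) to 2013 (without Obese 4). The 6 calls against LFD became 0 with log2(normalized count + 1), voom, lane, luminal or muscle covariates, without lane 4 and with only the compared groups, 1 without libraries of low B cell or of high muscle mean, 172 with the B cell covariate, 283 with weights, and 0 to 87 (without LFD 2) with 1 library left out. The 1 call against LFCR and MCR became 0 with voom, luminal or muscle covariates, without libraries of high muscle mean and with only the compared groups, 2 without lane 4, 8 without libraries of low B cell mean, 57 with quantile normalization, 521 with the B cell covariate, 4006 with weights, and 0 to 1661 with 1 library left out (1661 without MCR 2, 60 without LFCR 1, 19 without ICR 3). Of the 104 named genes the 25 that differed from Control ranged from 5 (without ICR 2, Control 1 or Control 2) to 29, with 12 without ICR 1 and 11 without ICR 4. The cause of these shifts was not tested. Of the 103 named genes past the threshold against Obese, 0 reversed, 72 passed in every omission of 1 library and 51 in every alternative. No paired analysis was possible because the labels give each animal its own number, shared by no other group. Sequencing lane, which does not pair animals, was fitted as a term instead and gave 1562 calls against Obese. Reads per library were lowest in lane 4, which limits ICR 2 and Obese 3 most.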

Other observations

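Beside Control mice, ICR fat had lower transcripts of interferon response genes and higher ones of several lists of adipocyte genes, lipid droplet genes among them. These lists were singled out after their values were seen. Of 22 interferon response genes 11 were lower in ICR than in Control (limma, adjusted p under 0.05) and 0 higher, with a median of -0.77, against 0.882% of all genes lower. Oas3, which makes the messenger that activates RNase L, had 158 ± 40.8 normalized counts in ICR and 647 ± 319.5 in Control (SD, n = 5). The antiviral GTPase gene Mx1 read 252 ± 88.1 and 868 ± 488. The count ran from 2, without ICR 2, to 16, without Control 3. The call of Mx1 was lost in 7 of the 10 omissions of 1 library and that of Oas3 in 0. The B cell mean was 10.5 to 12.1 (log2) in ICR and 11.7 to 13.1 in Control, and its part in this was not tested.

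Of 15 lipolysis and lipid droplet genes 6 were higher in ICR than in Control and 0 lower, among 3.69% of all genes higher. They included Pnpla2, the first lipase of triglyceride (68116 ± 15389 against 29919 ± 13373), the droplet coat gene Plin4 (140474 ± 46207 against 53578 ± 27773) and Cidec, which fuses droplets (58399 ± 15196 against 23693 ± 10441). The count was 1 without ICR 2, Control 1 or Control 2. The calls lost were Pnpla2 without ICR 2 or 4 or Control 1 or 2 (adjusted p up to 0.0746), Plin4 without ICR 2 or Control 2 (adjusted p up to 0.055) and Cidec without Control 1 (adjusted p up to 0.0518). The rise was not particular to this list, whose median was 0.82. Medians were 0.93 for fatty acid uptake, 0.85 for adipokines, 0.71 for branched-chain amino acid breakdown and 0.05 for de novo lipogenesis. The luminal mean was 10.2 to 10.7 (log2) in ICR and 9.85 to 11.2 in Control. The B cell mean was lower in ICR, at 10.5 to 12.1 against 11.7 to 13.1 in Control. The part of cell mix, lymphoid tissue included, was not tested. Ucp1, the uncoupling protein of brown and beige fat, had 3.86 ± 3.19 counts in ICR and 994 ± 1542 in Control, a mean whose SD exceeds it (log2 difference -3.95, adjusted p = 0.0441). That call was lost in 8 of the 10 omissions of 1 library (adjusted p up to 0.118).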
